A study of Mus musculus with 6 samples.

Results

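The Hoxc cluster of the mouse was described from CpG sites of chromosome 15 (mm9) that start in chr15:102750000-102872000, a stretch that runs from Hoxc13 at its low end to Hoxc4 at its high end. Sites were kept when each of the 6 kidney libraries covered them with at least 10 reads, which left 558 of the 963 sites seen there in any library, and 558 of 943307 such sites in all. Within the interval, sites were kept by position and coverage alone, but the interval itself was chosen with earlier results of these data known. The 9 genes Hoxc13, Hoxc12, Hoxc11, Hoxc10, Hoxc9, Hoxc8, Hoxc6, Hoxc5 and Hoxc4 lie there in this order, together with the long noncoding RNA gene Hotair between Hoxc12 and Hoxc11.

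Hox genes encode homeodomain transcription factors that give cells their position along the body axis, and their order on the chromosome follows the order of their expression domains. In tissues where a Hox gene is silent, Polycomb complexes commonly cover its CpG-rich start, and such starts are largely free of DNA methylation. Hoxc11 acts together with its paralogues Hoxa11 and Hoxd11 in the forming metanephric kidney of mice.

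DNA came from kidney cortex and outer medulla of wild-type male C57BL/6J mice and was read by reduced representation bisulfite sequencing, in which MspI cuts DNA at CCGG, short fragments are kept, and a cytosine that survives bisulfite counts as methylated. Obstructed kidneys, in which the left ureter had been tied for 7 days, came from mice injected with 5AZA in saline at 1 mg/kg per day (UUO 5AZA, 2 libraries) or with saline alone (UUO saline, 2 libraries). The sham group (2 libraries) had surgery without the ligation. Sham 1 belongs to the obstruction experiment, whereas sham 2 is labelled as the sham of a kidney ischemia/reperfusion experiment, with 48 h in its name. Nothing in the labels says that libraries of a group came from separate mice. P-values thus rest on the spread of the libraries, part of which may be technical. Whole tissue was used, so a changed level cannot be told apart from a changed mix of cell types.

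Reads over the Hoxc sites summed, over all sites seen there, to 32046 and 38493 in UUO 5AZA, 40173 and 34837 in UUO saline, and 36529 and 20600 in sham 1 and sham 2. Median coverage of the 558 sites ranged from 31 reads in sham 2 to 61.5 reads in UUO saline 1. A level is the percent of covering reads that were methylated, and it carries counting error only as far as reads are separate molecules, which was not measured. In the interval sham 2 was lower than sham 1 in 32 of 46 windows of 1 kb, by a median of 2.77 percentage points over the 46. This order was not particular to Hoxc, since the mean level of sites outside it was 43.0% in sham 2 and 44.4% in sham 1. How many windows of the genome had this order was not counted. In 1 window described further on, sham 2 alone was high.

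Only few gene starts of the cluster could be placed on mm9. Start sequences and miRNAs of the cluster, 10 in all and credited to RefSeq on GRCm38.p6, were laid jointly on the pattern of measured CpG positions. In the best placement 12 measured CpG sites fell on a CpG of these sequences and 0 fell beside one, against 5 on and 4 beside in the next best. Each sequence that follows holds measured CpG sites in capitals and is shown because its sites give the position of a named start or miRNA. Together they also show the difference between CCGG sites and other CpG sites that prompted the later split. That split itself used coverage and spacing.
Gm36878: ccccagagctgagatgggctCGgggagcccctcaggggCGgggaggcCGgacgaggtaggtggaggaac
miR-615-5p: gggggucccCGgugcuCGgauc
miR-615-3p: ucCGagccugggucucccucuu
Hoxc4: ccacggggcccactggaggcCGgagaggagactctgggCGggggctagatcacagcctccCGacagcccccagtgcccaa

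The Gm36878 bases come from the start of a long noncoding RNA gene that overlaps Hoxc9, lie at chr15:102811572-102811640 and are read on the minus strand. The miR-615 arms belong to Mir615, which lies inside Hoxc5, and sit at chr15:102845357-102845378 and chr15:102845400-102845421 on the plus strand. The Hoxc4 bases end just before an inner annotated start of that gene and lie at chr15:102864746-102864825 on the plus strand. Longer Hoxc4 transcripts begin between Hoxc5 and this inner start, so that the gene reaches back to just beyond Hoxc5. In the order of the GRCm38.p6 annotation, the Gm36878 start falls inside Hoxc9, and Gm29905, another long noncoding RNA gene, starts next to the outermost Hoxc6 start.

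A CpG inside CCGG read very differently from a CpG a few bases away. In miR-615-5p the CCGG site at position 10 of the miRNA had 73.7% and 84.2% methylation in UUO 5AZA, 90.2% and 89.3% in UUO saline, and 85.2% and 81.6% in sham 1 and sham 2, at 28 to 57 reads a library. The CpG at position 17 had 6.67% and 5.88% in UUO 5AZA, 4.44% and 7.41% in UUO saline, and 1.85% and 5.00% in sham. All 6 libraries were thus high at one CpG and low at the next. Over all reads the CCGG site was at 83.4% (Wilson 95% interval 78.6 to 87.3) and its neighbour at 4.90% (2.82 to 8.36).

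The same held in the Gm36878 sequence, where the CCGG site was at 72.5% of 120 reads (63.9 to 79.7) and the other 2 CpG sites were at 5.83% and 6.67%. Before Hoxc4, which directs vertebral patterning in the mouse, the CCGG site was methylated in all of 31 reads, while 15 and 10 of 31 reads were methylated at the other 2 sites. These last 2 sequences were too thinly covered to be among the 558 sites. Over placed sequences of Hoxc, counting sites with at least 10 reads summed over the 6 libraries, 3 CCGG sites averaged 85.3% and 6 other CpG sites 17.6%. In the Hoxa cluster 10 CCGG sites averaged 82.0% and 56 other CpG sites 5.80%, and in the Hoxd cluster 17 averaged 73.3% and 77 others 4.70%. The 3 sites of the Gm29905 match, with 4 reads each, were left out by this minimum. The end-repair mix of these libraries held methylated dCTP, and its part in the level of fragment-end sites was not tested.

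Sites were therefore split without use of any methylation level. A site was taken to lie inside a fragment if a neighbour at most 220 bp away matched its coverage within 6%. Its other neighbour, also at most 220 bp away, had to match too or be a coverage peak. A peak is a site with more reads than the neighbours on both sides and a match to neither, and was itself left out. This gave 291 mid-fragment sites of 558, and the remaining 267 may lie at a fragment end. None of 22 CCGG sites that could be checked in the 3 clusters was classed as mid-fragment. Mid-fragment sites of Hoxc averaged 11.8% and 11.4% in UUO 5AZA, 12.4% and 13.4% in UUO saline, and 13.4% and 11.7% in sham. The other sites averaged 51.0% and 49.8% in UUO 5AZA, 50.9% and 51.9% in UUO saline, and 51.5% and 48.4% in sham. The median mid-fragment site stood at 5.83% and the median of the other sites at 66.0%.

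**Figure D1:**
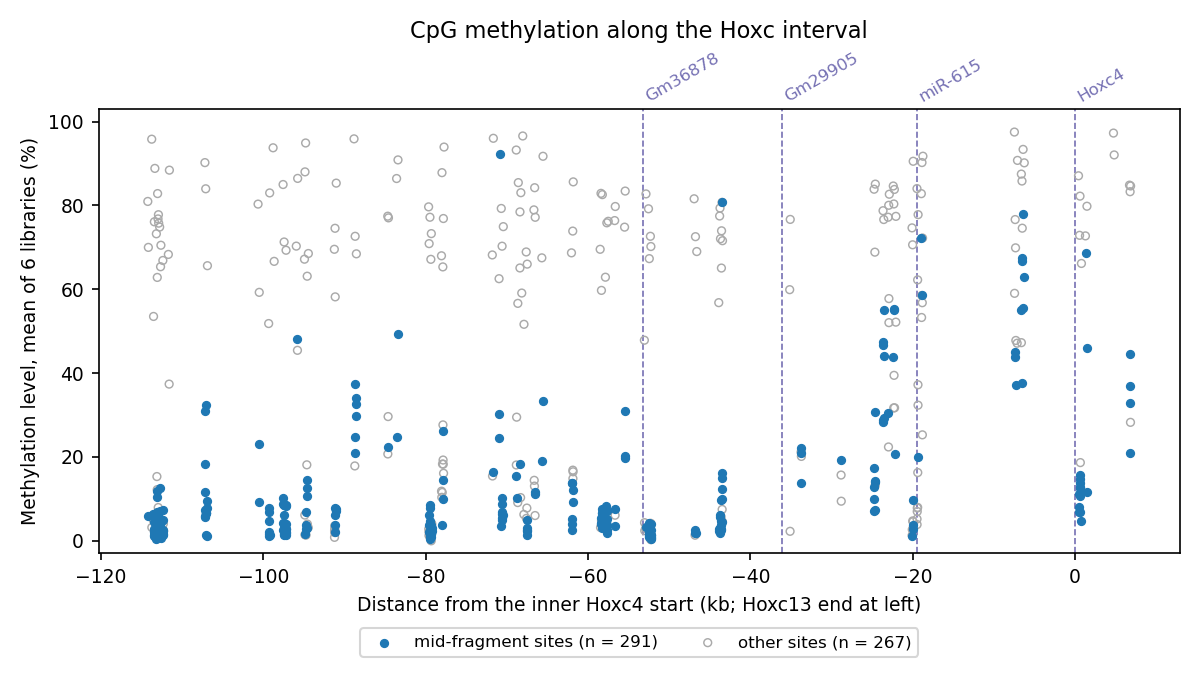
Methylation level of each of the 558 Hoxc sites (percent, mean of the 6 libraries) against distance from the inner annotated Hoxc4 start in kb, with the Hoxc13 end at the left. Filled points are the 291 mid-fragment sites and open points the other 267; dashed lines mark the placed starts, and the filled points lie mostly under 20% up to the Gm29905 line and higher around miR-615.

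Along the cluster, mid-fragment methylation was low over the Hoxc13 to Hoxc8 part and high at the 13 mid-fragment sites between miR-615 and the inner Hoxc4 start. The 192 mid-fragment sites before the Gm36878 match, the stretch of Hoxc13, Hoxc12, Hotair, Hoxc11, Hoxc10 and the start of Hoxc9, averaged 8.26% over the 6 libraries. Hoxc13 is needed for hair and nail growth in the mouse, and Hoxc10 and Hoxc9 set lumbar and thoracic motor neuron identity. The 40 sites from the Gm36878 match to the Gm29905 match, with the rest of Hoxc9 and with Hoxc8, averaged 5.82%. Hoxc8 patterns thoracic ribs and vertebrae in the mouse.

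From the Gm29905 match to miR-615, the stretch of Hoxc6 and the start of Hoxc5, 28 sites averaged 24.7%. The 13 sites from miR-615 to the inner Hoxc4 start, most of this stretch being Hoxc4 itself, averaged 53.9%, and the 18 sites after that start averaged 21.1%. In every library the stretch from miR-615 to the inner Hoxc4 start was the highest of these 5 and the one with Hoxc8 the lowest. The 13 sites stood at 54.4% and 52.4% in UUO 5AZA, 51.8% and 54.9% in UUO saline, and 56.6% and 53.2% in sham, with all groups overlapping. Of them, 3 lie in chr15:102857001-102858000 and 7 in chr15:102858001-102859000, and the rest in chr15:102845001-102847000, so most of the stretch is not sampled. Its sites that may lie at a fragment end averaged 57.5%. Some of these near miR-615 were low, as at chr15:102845373 (5.21%) and chr15:102845402 (7.82%). The 192 sites stood at 7.80% and 7.16% in UUO 5AZA, 9.01% and 9.37% in UUO saline, and 9.06% and 7.18% in sham.

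Bins of 10 kb give the same course in finer steps. From the Hoxc13 end onward, mid-fragment means over the 6 libraries were 5.36%, 6.47%, 14.1%, 7.77%, 14.6% and 7.77% in the first 6 bins. They were 2.07%, 10.4%, 19.0%, 28.4%, 55.0% and 17.5% in the next 6. The bin at 19.0%, chr15:102830001-102840000, holds only 4 mid-fragment sites. It stood at 48.3% in sham 2 and at 9.06% to 16.8% in the other libraries. The lowest bin, chr15:102810001-102820000, holds the Gm36878 start and the highest, chr15:102850001-102860000, lies between miR-615 and the inner Hoxc4 start. In the lowest bin, the 22 mid-fragment sites had 1.77% and 2.27% in UUO 5AZA, 2.94% and 2.54% in UUO saline, and 2.53% and 0.352% in sham. In the highest, 10 such sites had 55.3% and 53.4% in UUO 5AZA, 54.5% and 58.0% in UUO saline, and 57.9% and 50.6% in sham. These 10 are among the 13 sites from miR-615 to the inner Hoxc4 start. The groups overlapped in the highest bin, and in the lowest sham 2 lay below the other 5 libraries.

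**Figure D2:**
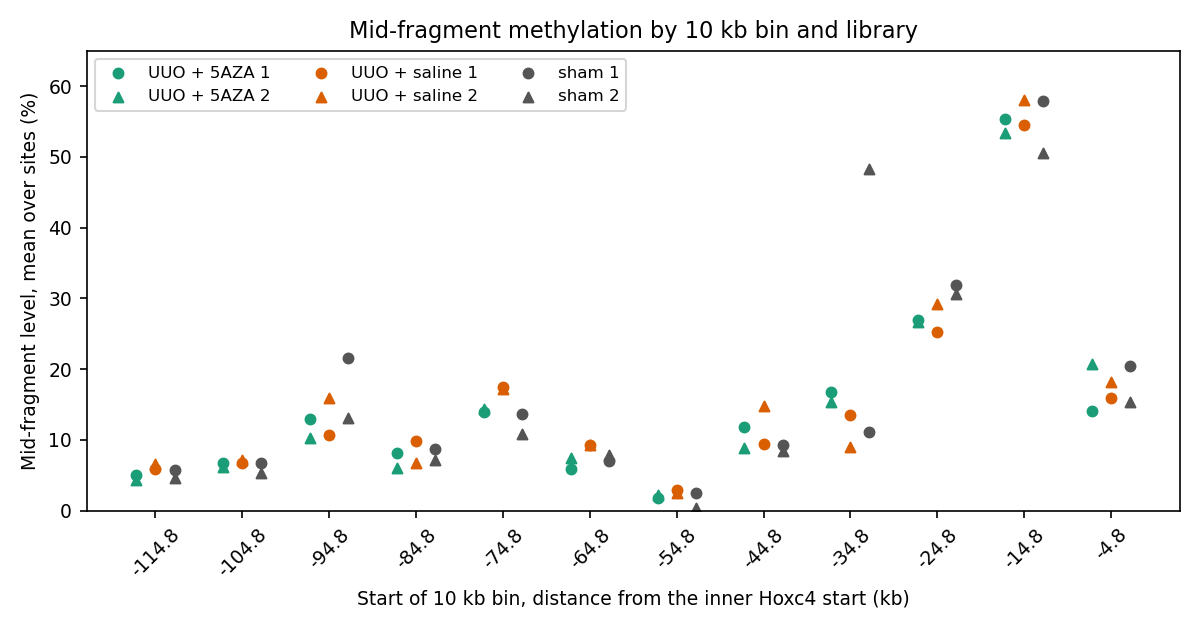
Mean methylation level (percent) of mid-fragment sites in each of the 12 bins of 10 kb that lie wholly in the interval, by library. Circles are the library numbered 1 and triangles the library numbered 2 of each group, and levels are highest in the bin that starts 14.8 kb before the inner Hoxc4 start; sham 2 stands alone in the bin that starts 34.8 kb before it.

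Partial methylation was scattered through the low part as well. Of 44 windows of 1 kb with mid-fragment sites, 18 had a mean mid-fragment level under 10%, 11 lay between 10% and 20%, and 15 were at 20% or more. Before the Gm36878 match 7 of 26 such windows were at 20% or more, with the highest at 37.0%, in chr15:102781001-102782000. From miR-615 to the inner Hoxc4 start all 4 windows were, at 42.1% to 60.5%. Only 8 mid-fragment sites had a mean of 60% or more. Of these, 5 lay between miR-615 and the inner Hoxc4 start and 1 after it, and the other 2 stood at 92.2% at chr15:102794003 and 80.8% at chr15:102821336, amid low neighbours.

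By class of level, 67.4% of Hoxc mid-fragment sites had a mean under 10%, against 71.7% of the 473679 mid-fragment sites outside Hoxc. Sites under 5% made up 46.4% in Hoxc and 67.2% elsewhere. Sites from 20% to 60% made up 15.8% in Hoxc and 6.05% elsewhere, and sites of 60% or more 2.75% in Hoxc and 19.6% elsewhere. The Hoxd cluster, from the Hoxd13 to the Hoxd1 start, had 16.7% of 503 mid-fragment sites from 20% to 60%, and the Hoxa cluster, from the Hoxa5 to the Hoxa13 start, 10.0% of 300. These shares are descriptions, since neighbouring sites of one fragment are not independent. Hoxb was not compared, because none of its starts could be placed.

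UUO saline was set against sham to ask whether obstruction changed the cluster. Over the 558 sites the mean level was 31.3 ± 0.727% in UUO saline and 30.4 ± 1.68% in sham (SD, n = 2 each). The libraries overlapped, and the means differed by 0.911 points. An exact two-sided permutation test gave p = 0.67, and with 2 libraries against 2 it cannot go below 0.33. Without sham 2 the difference was -0.278 points. Outside Hoxc the mean level was 45.3% and 45.3% in UUO saline and 44.4% and 43.0% in sham.

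No window, bin or site of the cluster passed the test. Methylated and unmethylated reads of each feature were tested by edgeR's quasi-likelihood test with Benjamini-Hochberg adjustment over the whole genome at an adjusted p of 0.05. Of 46 Hoxc windows of 1 kb, 0 were called, where 0.0501% of all 89813 windows were, and the smallest adjusted p was 0.145. At an unadjusted p under 0.05 there were 8 of 46 (17.4%), 6 higher and 2 lower in UUO saline, against 10.4% of all windows. In limma there were 0 calls in Hoxc or elsewhere, and 1 of 46 windows (2.17%) had an unadjusted p under 0.05, against 10.9% of all windows. The share of Hoxc windows at that level was thus above the genome's in edgeR and below it in limma. Of 11 bins of 10 kb, 0 were called, as were 0 of all 21386 bins (0%), with 1 at an unadjusted p under 0.05 (9.09%, against 10.1% of all bins) and 0 by limma (against 11.0%). Of 557 sites, 0 were called, against 0.00283% of all sites, and 37 had an unadjusted p under 0.05 (6.64%, against 3.99% of all sites).

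In 14 of 46 Hoxc windows UUO saline had both its libraries above both of sham (30.4%, against 32.3% of all windows). Both lay below in 6 (13%, against 9.73%). The median difference of the 46 windows was 1.26 points, against 1.13 points over all windows. Both shares and the median stood near those of the genome.

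The window with the smallest p, chr15:102831001-102832000, lies a few kb beyond the Gm29905 match, on the Hoxc6 side. Its 5 sites had 15.3% and 14.5% in UUO 5AZA, 12.5% and 8.89% in UUO saline, and 13.3% and 53.1% in sham 1 and sham 2, at 60 to 375 summed reads a library. Sham 2 stood alone, and sham 1 lay among the obstructed kidneys. The difference of -22.5 points between UUO saline and sham had an unadjusted p of 0.000742 and an adjusted p of 0.145 in edgeR's test. Without sham 2 it was -2.62 points (adjusted p = 0.94), and without sham 1 it was -42.4 points and passed the test (adjusted p = 0.0239, edgeR).

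At all 5 sites of that window sham 2 was the highest library, from 30.8% at chr15:102831106 to 69.2% at chr15:102831102. The site at chr15:102831102, where sham 2 stood furthest apart, was methylated in 10 of 75 and 4 of 54 reads in UUO saline. In sham it was methylated in 0 of 12 reads of sham 1 (Wilson 95% interval up to 24.2%) and in 18 of 26 reads of sham 2 (69.2%, interval 50.0 to 83.5). At each other site sham 1 had 2 of 12 methylated reads, and its interval (4.70 to 44.8) overlapped that of sham 2. The sites sit close together at near equal coverage, so their reads share fragments and the sites are not independent. Sham 2 differs from the other libraries in experiment, label and depth over the interval, and their part in this window was not tested. Within the window, however, sham 1 had the fewest summed reads, 60 against 128 in sham 2.

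The next window, chr15:102842001-102843000, holds 12 sites before miR-615 on the Hoxc6 and Hoxc5 stretch. Its level was 57.6% and 53.1% in UUO 5AZA, 53.2% and 52.4% in UUO saline, and 63.0% and 59.4% in sham. Both sham libraries lay above both UUO saline libraries, while UUO 5AZA overlapped UUO saline. UUO saline differed from sham by -8.35 points, with an unadjusted p of 0.00885 and an adjusted p of 0.289 in edgeR's test. In limma the unadjusted p was 0.0562 and the adjusted p 0.471. The difference was -10.2 points without sham 2 and -6.52 points without sham 1. At a minimum of 20 reads a site the difference was -16.7 points. Its 4 mid-fragment sites spread the groups further, with 45.5% and 42.7% in UUO 5AZA, 36.0% and 34.2% in UUO saline, and 53.5% and 50.6% in sham. Here the library means of the 3 groups did not overlap, but both UUO saline libraries lay below both sham libraries at only 2 of the 4 sites. With mid-fragment sites only, the unadjusted p was 0.0292 and the adjusted p 0.467 in edgeR's test of UUO saline against sham.

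The site with the smallest p in the cluster, chr15:102842553, is one of these mid-fragment sites. It had 56.2% and 49.1% in UUO 5AZA, 39.1% and 38.6% in UUO saline, and 78% and 70.2% in sham. Each group stood clear of the others, with UUO saline lowest. Between UUO saline and sham the unadjusted p was 0.000107 and the adjusted p 0.498 in edgeR's test over all sites.

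The other windows among the 6 of smallest p were higher in UUO saline. At chr15:102799001-102800000, 4 sites had 46.3% and 55.5% in UUO 5AZA, 58.7% and 60% in UUO saline, and 49.8% and 46.0% in sham. UUO saline exceeded sham by 11.4 points there (adjusted p = 0.439, edgeR). At chr15:102767001-102768000, 24 sites had 19.6% and 16.8% in UUO saline and 14.8% and 13.2% in sham, and at chr15:102752001-102753000, near the Hoxc13 end, 27 sites had 22.3% and 18.2% in UUO saline and 17.0% and 15.1% in sham. At chr15:102818001-102819000, 6 sites had 34.5% and 32.4% in UUO saline and 28.6% and 22% in sham. In all 4 the UUO saline libraries exceeded both sham libraries, and none passed the adjusted test. The differences at chr15:102767001-102768000 and chr15:102752001-102753000, 4.2 and 4.25 points, were 0.0237 and 2.06 points at a minimum of 20 reads. They were 2.79 and 2.19 points without UUO saline 1. At chr15:102818001-102819000 the difference of 8.15 points was 2.04 points with mid-fragment sites only and 4.84 points without sham 2.

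**Figure D3:**
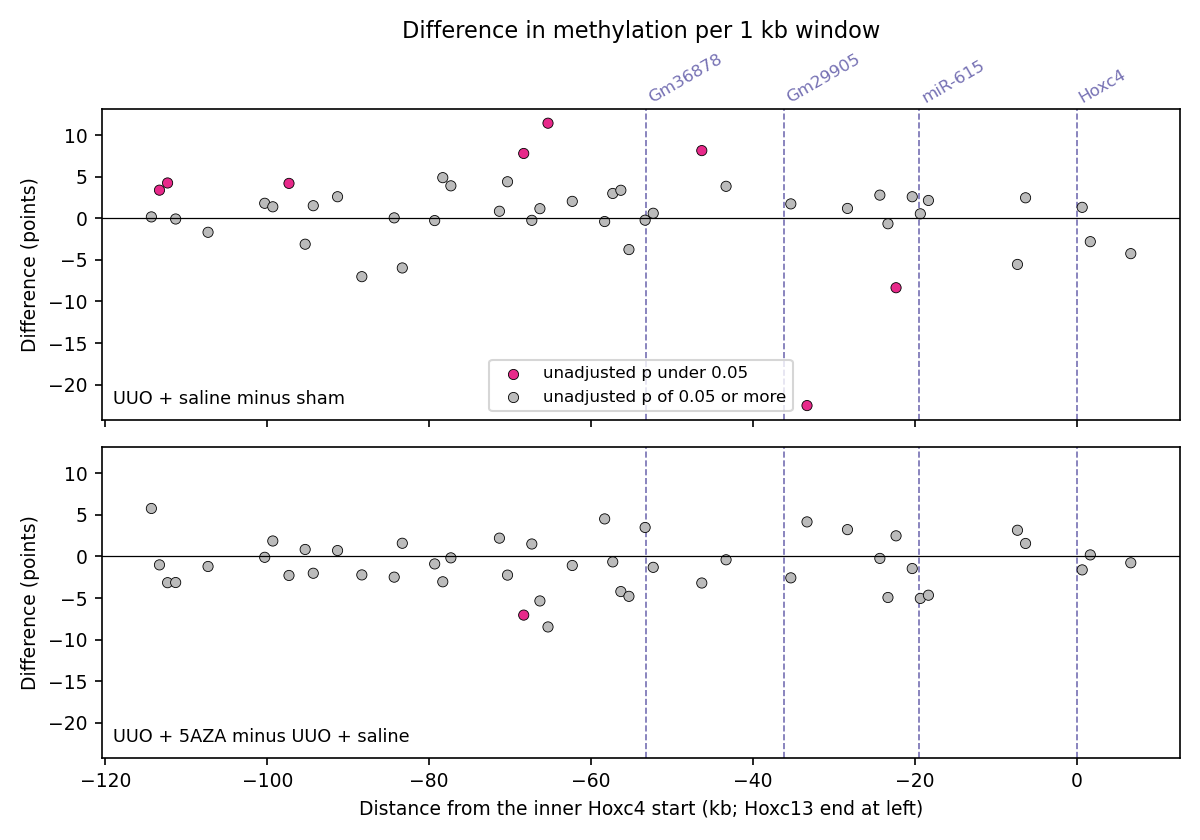
Difference in methylation level (percentage points) of each of the 46 tested windows against distance from the inner Hoxc4 start in kb, for UUO saline minus sham (upper panel) and UUO 5AZA minus UUO saline (lower panel). Coloured points have an unadjusted p under 0.05 (8 and 1 windows), no window passed the adjusted test, and the lowest point of the upper panel is the window that is high in sham 2.

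At partly methylated sites of Hoxc, the mean of UUO saline lay below that of sham. This class, the 46 mid-fragment Hoxc sites whose mean over the 6 libraries was 20% to 60%, was cut after the data were seen and gets no test. It averaged 35.6% and 31.5% in UUO 5AZA, 32.9% and 36.0% in UUO saline, and 41.0% and 38.4% in sham. Both sham libraries were above all 4 libraries of obstructed kidneys. However, 2 of the 46 sites, in chr15:102831001-102832000, averaged 64.6% in sham 2 and 8.33% to 17.8% in the other libraries. Both UUO saline libraries lay below both sham libraries at 18 of the 46 sites (39.1%), and above at 7 (15.2%). Over all 28727 such sites of the genome the shares were 9.01% below and 41.4% above. Sites of one fragment are not independent, so these shares are descriptions. By 1 kb window the order in Hoxc was more even, with 6 of 19 below and 4 above.

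Outside Hoxc these partly methylated sites averaged 37.5% and 36.5% in UUO 5AZA, 45% and 44.9% in UUO saline, and 39.6% and 36.5% in sham, with UUO saline highest. Neither Hoxa nor Hoxd had UUO saline clearly above sham. The 30 sites in Hoxa averaged 39.1% and 38.3% in UUO saline and 42.3% and 36.0% in sham, and the 84 in Hoxd 36.3% and 37.5% in UUO saline and 37.8% and 35.9% in sham, so that the groups overlapped in both clusters. Part of the Hoxc gap rested on the window high in sham 2: without it, 44 sites averaged 33.8% and 37.1% in UUO saline and 42.4% and 37.2% in sham. UUO saline 2 and sham 2 were then nearly equal. The difference between Hoxc and the genome in this class was not tested.

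The low sites of Hoxc had another order. The 196 mid-fragment Hoxc sites with a mean under 10% averaged 3.64% and 3.60% in UUO 5AZA, 4.69% and 4.91% in UUO saline, and 4.29% and 2.90% in sham. Here UUO saline was above sham, and sham 2 lay lowest. The 339615 sites under 10% elsewhere averaged 1.97% and 1.98% in UUO 5AZA, 2.19% and 2.23% in UUO saline, and 1.87% and 0.973% in sham, with UUO saline again highest. This class too was cut after the data were seen and gets no test.

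The 46 sites fall in 19 windows of 1 kb, and 12 of these had a lower mean in UUO saline than in sham. In 6 windows both UUO saline libraries were below both sham libraries and in 4 both were above. The share of such windows over the genome was not counted, so these window counts have no background beside them. From the Gm29905 match on, 10 of 27 sites had both UUO saline libraries below both sham libraries, and before it 8 of 19. The share was 9.01% over all 28727 such sites of the genome, and sites of one fragment are not independent. At chr15:102809001-102810000, 2 sites had 18.5% and 20.0% in UUO 5AZA, 24.5% and 23.1% in UUO saline, and 32.5% and 35.2% in sham. At chr15:102764001-102765000 the order was turned round, with 1 site at 28.9% and 22.2% in UUO 5AZA, 28.3% and 31.0% in UUO saline, and 15.4% and 12.5% in sham.

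**Figure D4:**
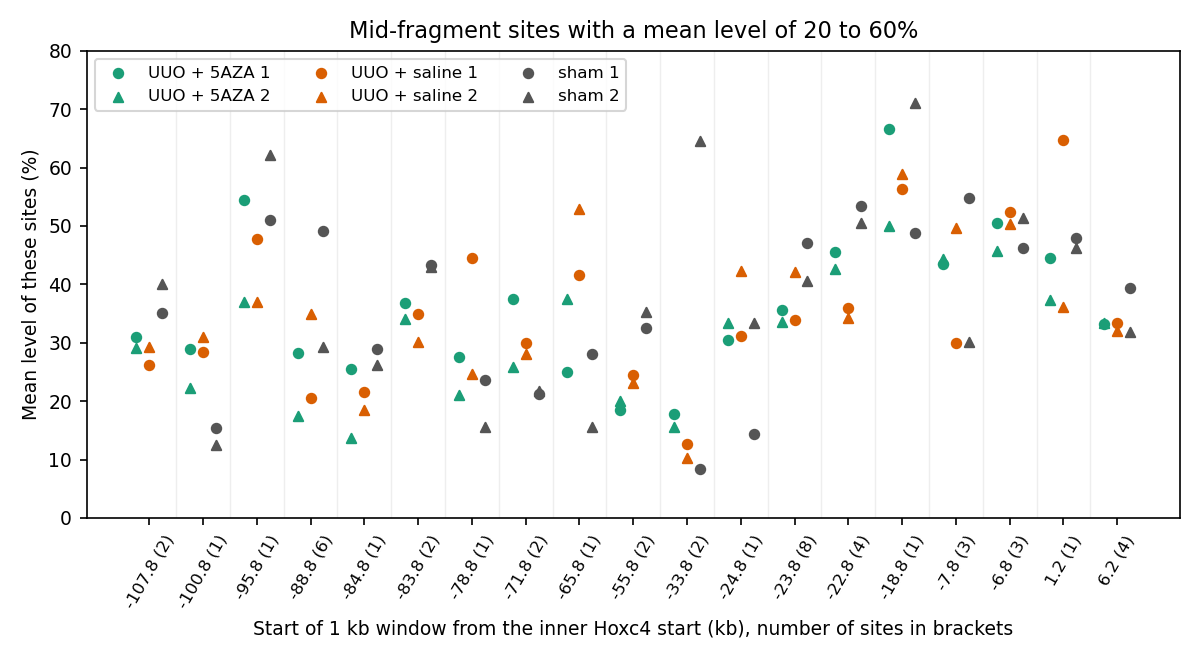
Mean level (percent) of the mid-fragment sites with an overall mean of 20% to 60% in each of 19 windows of 1 kb, by library, in order along the cluster (window start as distance from the inner Hoxc4 start in kb, number of sites in brackets). Circles are the library numbered 1 and triangles the library numbered 2; in the window that starts 22.8 kb before the inner Hoxc4 start the 3 groups do not overlap, and in the one 33.8 kb before it sham 2 stands alone.

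**Figure D5:**
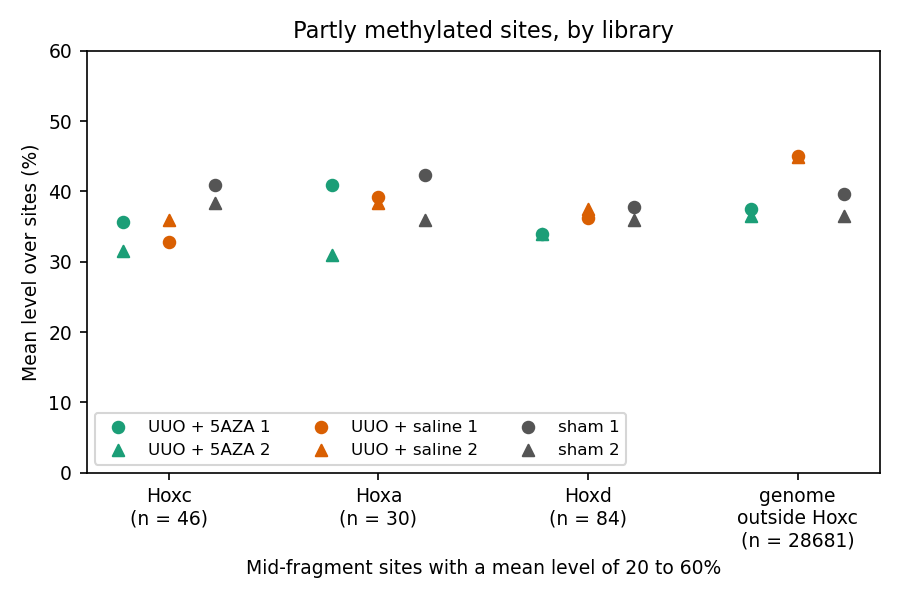
Mean level (percent) over mid-fragment sites with an overall mean of 20% to 60%, by library, in Hoxc (46 sites), Hoxa (30), Hoxd (84) and the genome outside Hoxc (28681). UUO saline is below sham in Hoxc, overlaps it in Hoxa and Hoxd, and is above it in the rest of the genome. In Hoxc, 2 of the 46 sites are high in sham 2 alone.

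Just beyond miR-615-3p lay several sites in which UUO saline was low, picked after their values were seen and so given without a test. At 42 bases past the last base of the miRNA the level was 8% and 17.9% in UUO 5AZA, 11.4% and 7.14% in UUO saline, and 29.0% and 24.1% in sham. At 68 bases it was 38.7% and 33.3% in UUO 5AZA, 25.7% and 21.4% in UUO saline, and 38.7% and 65.5% in sham. At 74 bases it was 33.3% and 33.3% in UUO 5AZA, 9.43% and 20.8% in UUO saline, and 41.7% and 55.6% in sham. Both UUO saline libraries lay below both sham libraries at each of these 3 sites, which may lie at a fragment end, and at 45 bases, where the site is mid-fragment. The sites at 42, 45 and 68 bases had the same coverage in each library, so their reads share fragments and the sites are not independent. Other sites of the same stretch differed in order. At 29 bases the level was 5.41% and 5.56% in UUO 5AZA, 2.94% and 7.14% in UUO saline, and 12.5% and 14.3% in sham. UUO saline was below sham there on few methylated reads, 1 of 34 and 1 of 14 in UUO saline and 2 of 16 and 2 of 14 in sham. At 25 bases it was 61.0% and 59.2% in UUO 5AZA, 57.7% and 70.7% in UUO saline, and 65.7% and 59.2% in sham, with the groups overlapping. At 83 bases it was 81.6% and 85.7% in UUO 5AZA, 80.6% and 85.7% in UUO saline, and 66.7% and 66.7% in sham, so that UUO saline lay above sham. The whole window chr15:102845001-102846000, with 17 sites, had 38.3% and 55.0% in UUO saline and 45.7% and 46.4% in sham, so that over the window the groups overlapped.

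UUO 5AZA was set against UUO saline to ask what the drug changed in obstructed kidneys. This comparison uses the same UUO saline libraries as the one before. Over the 558 sites the mean was 30.2 ± 0.530% in UUO 5AZA and 31.3 ± 0.727% in UUO saline (SD, n = 2 each). The difference was -1.19 points, with both UUO 5AZA libraries below both UUO saline libraries, and the exact two-sided permutation p was 0.33, the smallest possible. Outside Hoxc the mean was 43.5% and 43.1% in UUO 5AZA, against 45.3% in each UUO saline library.

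Of the 46 windows 0 were called by edgeR, where 1.55% of all windows were, and the smallest adjusted p was 0.212. At an unadjusted p under 0.05 there was 1 window (2.17%, against 23.2% of all windows), lower in UUO 5AZA, and limma had 0 calls and 0 Hoxc windows at that level, against 20.5% of all windows. None of 11 bins (0% of all bins) and none of 557 sites (0.00163% of all sites) was called, with 0 bins (against 19.7%) and 18 sites (3.23%, against 5.22% of all sites) at an unadjusted p under 0.05. Both UUO 5AZA libraries lay below both UUO saline libraries in 11 of 46 windows (23.9%), against 49.1% of all windows. They lay above in 5 (10.9%), against 5.69%. The median difference was -1.05 points in Hoxc and -2.70 points over all windows. The median Hoxc window thus differed less than the median window of the genome, and whether the share or the median differed from that of windows with like levels was not tested.

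The 1 window with an unadjusted p under 0.05 was chr15:102796001-102797000, before the Gm36878 match, with 16 sites. It had 48.8% and 38.1% in UUO 5AZA, 52.2% and 48.8% in UUO saline, and 43.2% and 42.1% in sham. One UUO 5AZA library lay near UUO saline and the other below sham. The difference of -7.05 points had an unadjusted p of 0.0483 and an adjusted p of 0.212 (edgeR), and was -1.72 points without UUO 5AZA 2 and -12.4 points without UUO 5AZA 1. At chr15:102798001-102799000, 8 sites had 33.7% and 32.2% in UUO 5AZA and 38.4% and 38.2% in UUO saline, and at chr15:102806001-102807000, 16 sites had 31.3% and 37.7% in UUO 5AZA and 28.5% and 31.4% in UUO saline. In the last of these, UUO 5AZA 1 lay between the UUO saline libraries, and with mid-fragment sites only the difference of 4.52 points was -4.40 points. Among the 46 partly methylated sites, both UUO 5AZA libraries were below both UUO saline libraries at 4 (8.7%, against 47% over the genome) and above at 7 (15.2%, against 5.26%). Against sham they were below at 17 (37%, against 20.6%) and above at 2 (4.35%, against 14.7%). These site counts too are descriptions, since sites of one fragment are not independent.

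UUO 5AZA was also set against sham. This comparison shares its UUO 5AZA and sham libraries with the other comparisons. Over the 558 sites the mean was 30.2 ± 0.530% in UUO 5AZA and 30.4 ± 1.68% in sham (SD, n = 2 each). The means differed by -0.278 points (exact two-sided permutation p = 1). Of 46 windows 0 were called by edgeR (0.00111% of all windows), with a smallest adjusted p of 0.173, and 2 had an unadjusted p under 0.05 (4.35%, against 14.7% of all windows), with 0 by limma (against 13.8%). None of 11 bins (0% of all bins) and none of 557 sites (0.00152% of all sites) was called, with 0 bins (against 10.9%) and 14 sites (2.51%, against 3.52% of all sites) at an unadjusted p under 0.05. In 11 of 46 windows UUO 5AZA had both libraries above both of sham (23.9%, against 12.9%), and in 7 both were below (15.2%, against 31.9%). The median difference was 0.853 points in Hoxc and -1.12 points over all windows.

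The 2 windows were the one high in sham 2 and chr15:102842001-102843000, with differences of -18.4 and -5.86 points (adjusted p = 0.173 and 0.338, edgeR). In the first, UUO 5AZA without sham 2 was 1.54 points above sham 1. At chr15:102776001-102777000, 10 sites had 43.3% and 40.8% in UUO 5AZA, 43.9% and 44.7% in UUO saline, and 59.6% and 42.9% in sham, so that sham 1 stood alone. The difference of -9.23 points was -0.892 points without sham 1. At chr15:102841001-102842000, beside the window before miR-615, 16 sites had 50.5% and 45.9% in UUO 5AZA, 50.0% and 56.3% in UUO saline, and 58.2% and 49.4% in sham, and the groups overlapped. At chr15:102773001-102774000 and chr15:102821001-102822000 UUO 5AZA exceeded sham by 3.31 and 3.45 points, with adjusted p = 0.416 and 0.471 (edgeR). Without sham 2 these were 1.75 and 1.22 points.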

How the data were processed

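Reduced representation bisulfite sequencing of 6 mouse kidney libraries, 2 per group, gave the methylation values. Bowtie and the build mm9 are named, without a version, in the submitters' processing notes. For the methylation caller and any filters, a name is not given in the sources used here. Each deposited file lists CpG sites with counts of covering and methylated reads, and a fraction that the authors deposited beside them, which equals methylated over covering reads. Positions are printed 1-based. The interval, its genes and the regions set beside it were chosen with earlier results of these data known.

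Sites with at least 10 reads in all 6 libraries were used. Methylated and unmethylated counts were tested with edgeR 4.0.16 (glmQLFit, glmQLFTest; R 4.3.3) over all sites, windows of 1 kb with at least 3 sites and bins of 10 kb with at least 10 sites, with an intercept per library and one common dispersion for all 6. P-values were adjusted by Benjamini-Hochberg over the genome at 0.05; 1 of the 558 sites and 1 of the 12 bins were not tested. Window levels are summed methylated over summed reads; mid-fragment and region levels are means over sites. Mean levels were compared by exact permutation over libraries (Python 3.11.15). Named windows are those past the threshold, filled up to the 6 smallest p per comparison; further ones named were chosen after their values were seen. The mid-fragment rule was written after the data were seen. The tests were run on simulated data first. Alternatives were coverage of 5 or 20, no deepest 0.1% of sites, mid-fragment sites only, limma 3.58.1 on log2 ratios with 1 added, windows of 500 bp, at least 5 sites, 4 libraries only, a replicate block, pooled reads and leaving out each library. Gene positions on mm9 were not available beyond the placed starts. Same-numbered UUO libraries share only a number, and the main tests did not pair them.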

Additional observations from a re-analysis of the deposited data

How the results depend on the processing

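Counts of called windows, bins and sites in Hoxc were 0 under every alternative run except leaving out sham replicate 1. Without it, 1 window (chr15:102831001-102832000) and 1 site (chr15:102831102) were called between UUO saline and sham, so these counts ranged from 0 to 1 over the left-out libraries. Without sham replicate 1, 40 of all 89813 windows and 208 of all 920122 sites were called, against 45 and 26 with it. The mean difference between UUO saline and sham ranged from -0.278 to 2.10 points over the left-out libraries. The mean difference between UUO 5AZA and sham, -0.278 points, ranged from -1.47 to 0.911 points over them, was 0.00183 points at a minimum of 20 reads and 0.605 points as methylated over all reads. Between UUO 5AZA and UUO saline it stayed below 0, from -1.70 to -0.675 points. Without the window high in sham 2, an alternative chosen after seeing the data, the 3 differences were 1.12, -1.24 and -0.114 points. Of 18 named window results, 4 changed sign under an alternative: chr15:102806001-102807000 to -4.40 points with mid-fragment sites only and chr15:102767001-102768000 to 1.05 points at 20 reads (both UUO 5AZA against UUO saline), chr15:102831001-102832000 to 1.54 points without sham 2 (-38.3 points without sham 1) and chr15:102773001-102774000 to -0.0906 points at 5 reads (both UUO 5AZA against sham). The cause was not tested. Same-numbered UUO libraries deviated with r = 0.0762 over windows and share only a number; with the replicate block, 0 windows and 0 bins were called and 4 Hoxc windows had an unadjusted p under 0.05, against 1 without it. Over the genome the block gave 6856 called windows of 89813, against 1396 without it, and 3274 called bins of 21386, against 0, with 24281 windows at an unadjusted p under 0.05. Sham 2 had a median of 31 reads over the 558 sites.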
